A study of Arabidopsis thaliana with 9 samples.

Results

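The data described here are the H3K27me3 peaks of sperm nuclei from Arabidopsis thaliana htr10 mutant plants, called from immunoprecipitated chromatin against input. The members were chosen by their labels, as the 3 samples titled htr10 H3K27me3 and the 3 titled htr10 Input, together 6 of the 9 samples of the series. The 3 H3K27me3 samples were mononucleosomes released with micrococcal nuclease and pulled down with an antibody against trimethylated lysine 27 of histone H3. The 3 inputs were digested chromatin without immunoprecipitation. All 6 carry the htr10 genotype, a mutation of HTR10 (AT1G19890, also MGH3), and no other genotype was analysed here, so nothing below measures the effect of the mutation. The ecotype is labelled Col-0 for the inputs and Col-2, Col-3 and Col-4 for the H3K27me3 samples. The latter labels run on in number from sample to sample, and whether they name different accessions could not be checked. The nuclei were sorted by a DNA stain, and a peak list of a histone mark cannot show which cells were sorted. The labels do not say whether the samples of a group came from separate plants. The deposited lists give 1 set of peaks for all samples of the mark. No value per sample, no spread between samples and no depth could be given, and every value below is a description of these lists without a test.

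H3K27me3 is placed by Polycomb repressive complex 2 (PRC2) and keeps developmental genes silent in tissues that do not use them. In Arabidopsis its textbook targets are regulators of flowering, floral organs, meristems and embryos, such as FLC, AG, STM and LEC2, and it usually covers the body of a silenced gene. HTR10 encodes a histone H3 of sperm that is known to resist methylation at lysine 27, and wild-type sperm is known to have little H3K27me3. HTR10 itself had 0% of its length under a peak.

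The broad list held 12927 peaks on chromosomes 1 to 5, over 20.4 Mb or 17.1% of the span, and the narrow list 8940 peaks. A typical domain was short. The quartiles of broad peak width were 615, 1122 and 1997 bp, 10% of peaks were under 392 bp and 10% over 3330 bp. Peaks under 0.5 kb made up 17.1% of the list and 4.06% of its length. Peaks of at least 5 kb numbered 452, which was 3.50% of the list and 15.2% of its length. The widest 10%, 1293 peaks of at least 3331 bp, held 31.7% of the length. The authors' fold enrichment of a peak, the ratio of its signal to the background set by the caller, had little range, with its 10th percentile at 1.48 and its 90th at 1.89. Its median was 1.72 in peaks of at least 5 kb and 1.61 in peaks under 0.5 kb. The median −log10 q-value, the authors' measure of the strength of evidence for a peak, was 4.18 in the widest class and 2.29 in the narrowest.

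Part of this shape was set by the peak calling. The narrowest peak was 275 bp in both lists. The shortest gap between neighbouring broad peaks was 1101 bp, 4.0 times that width, against 276 bp in the narrow list. The plot of widths and gaps shows both lists ending sharply at these values. Shorter domains, and gaps under 1101 bp inside a domain, could therefore not appear in the broad list.

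**Figure D1:**
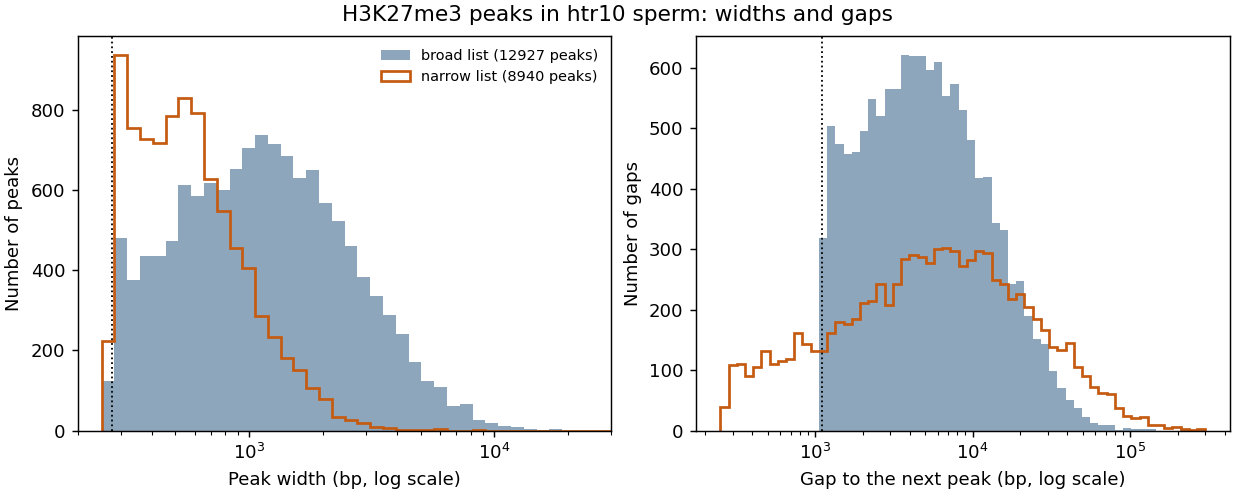
Widths of H3K27me3 peaks (left) and gaps to the next peak on the same chromosome (right), both in bp on log axes, as numbers of peaks or gaps in the broad list (filled) and the narrow list (line). The dotted lines mark the narrowest broad peak, 275 bp, and the shortest broad gap, 1101 bp; broad widths centre near their median of 1122 bp and broad gaps near 4758 bp.

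The 5 widest peaks lay on chromosomes 2 and 4 and touched 1 to 6 protein-coding genes each, with the most in 1 near the end of chromosome 2. The widest of all, 18187 bp at chr2:5416646-5434832 (TAIR10, counted from 1), touched 1 protein-coding gene, AT2G13126, and 7 pseudogenes. The next, 18002 bp at chr4:4803952-4821953, fully covered AT4G07965 and carried 10 narrow summits, the most of any peak. The peak of 17265 bp at chr2:281450-298714 carried 8 summits and fully covered 5 neighbouring protein-coding genes. They were AT2G01640, PUX2, which encodes a UBX domain protein, PDLP6, which encodes a plasmodesmata-located protein, AT2G01667 and NUDT17, which encodes a nudix hydrolase homolog. It was the only one of the 5 outside the pericentromere windows defined below. The peak of 14906 bp at chr2:6789813-6804718 fully covered ATHM3, which encodes an m-type thioredoxin, AT2G15580 and AT2G15590. The peak of 14150 bp at chr2:4756889-4771038 covered AT2G11815. Their folds were modest, from 1.60 to 1.87. At least 7 summits were held by 7 peaks, of which 3 were among these wide ones. The other 4, with 7 summits each, were narrower. That of 13116 bp at chr2:4075957-4089072 covered LCR29, a gene of the defensin-like family, and that of 12179 bp at chr4:5272678-5284856 touched no protein-coding gene. The peak of 9952 bp at chr4:1594850-1604801, outside the windows, touched AT4G03580, AT4G03590 and AT4G03600, each at least 50% covered. The peak of 9743 bp at chr5:13195370-13205112 touched AT5G34881, AT5G34882, AT5G34883, AT5G34885 and AT5G34887, also each at least 50% covered.

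The peaks of highest −log10 q were different from the wide ones. The highest, 106, belonged to a peak of 613 bp at chr2:9666-10278, which lay 3720 bp from the nearest ribosomal RNA gene. The next, 53.1, belonged to a peak of 1360 bp at chr2:2407-3766 that reached into the ribosomal RNA gene AT2G01010 and covered 3.37% of it. The fourth, 27.3, lay at chr3:14194158-14197635 and ended 41 bp from the rRNA gene AT3G41768, which had 0% coverage. Of the other rRNA genes on the chromosomes, AT3G41979 lay 100% under a broad peak and AT2G01020 had 0%. The folds of these 3 peaks were 1.60, 1.89 and 1.74, against a median of 1.64 and a 90th percentile of 1.89 over the list. Between them stood a peak at chr3:13703421-13707845 with no annotated gene, a −log10 q of 39.7 and the highest fold of the list, 3.88. The fold of its narrow peak was 2.66. The other 4 of the 8 peaks with the highest −log10 q had folds from 2.55 to 3.30 and −log10 q from 20.8 to 24.6. Ribosomal RNA genes are present in many more copies than the build shows, and the sources used here do not give how reads mapping to several places were treated. The part of copy number in these q-values was not tested.

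Narrow summits gave a second view of the same domains. All 8940 narrow summits fell inside broad peaks, 1 per narrow peak. No summit was found in 6084 broad peaks (47.1%), 1 in 5340 (41.3%), 2 in 1108 (8.57%), 3 in 264 (2.04%) and 4 in 91 (0.704%), and the remaining peaks held 5 to 10. Broad peaks with at least 2 summits numbered 1503, or 11.6% (Wilson 95% interval 11.1 to 12.2%, which covers counting error only), and held 40.3% of all summits. The count grew with width. The median width was 840 bp with no summit, 1231 bp with 1, 3083 bp with 2, 4876 bp with 3 and 6895 bp with 4. The mean number was 0.284 in peaks under 0.5 kb and 2.75 in peaks of at least 5 kb. Per length the summits were evenly spread above 1 kb, at 0.40 per kb in peaks of 1 to 2 kb, of 2 to 5 kb and in wider ones.

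Within a broad peak, 2097 pairs of neighbouring summits lay a median of 1533 bp apart (quartiles 1076 and 2132 bp, shortest 299 bp). Wide domains thus held separate maxima, and narrow peaks filled 29.1% of the broad length. Among broad peaks with a summit, the median fold was 1.72 for the whole peak and 2.12 for the strongest narrow peak inside. The highest fold was taken where several narrow peaks lay inside, so the values are not like measures. Because the narrow list began at a higher −log10 q, absence of a summit was partly fixed by the peak calling. It went mostly with weak peaks, whose median −log10 q was 1.92, against 3.35 for peaks with 1 summit. Exceptions were 114 of the 1609 peaks at or above a −log10 q of 5 (7.09%), which had no summit and a median width of 408 bp. At the other end, 15 of the 452 peaks of at least 5 kb had none.

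**Figure D2:**
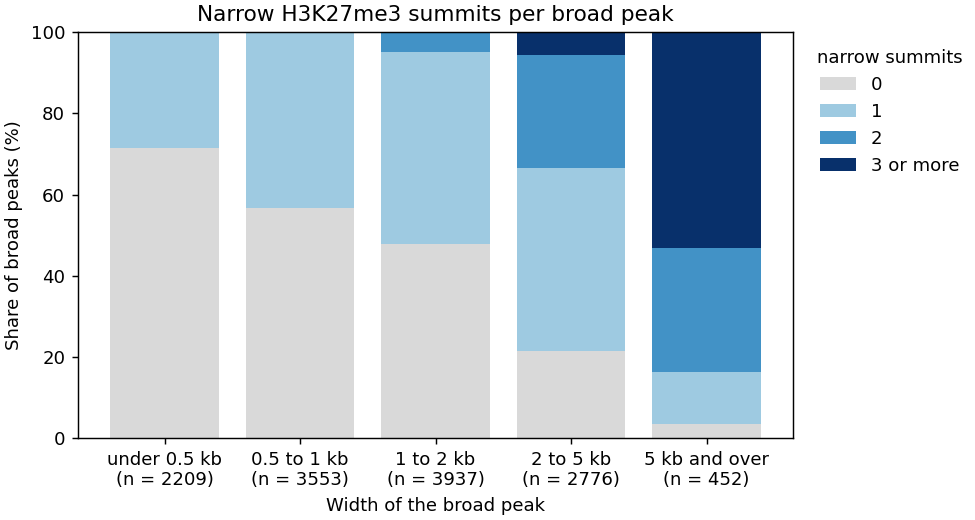
Share of H3K27me3 broad peaks (vertical axis, %) with 0, 1, 2 or 3 and more narrow summits, by width of the broad peak in kb (horizontal axis, number of peaks in brackets). Peaks without a summit make up 71.6% of the narrowest class and 3.32% of the widest, where 53.1% hold 3 or more.

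Spacing was uneven. The median gap was 4758 bp (quartiles 2439 and 9328 bp, mean 7634 bp). Gaps of at most 2 kb made up 18.4% of the 12922 gaps and gaps over 20 kb 7.24%. A cluster was defined as a chain of at least 2 peaks with gaps of at most 2 kb. There were 1851 clusters with 4234 peaks, 32.8% of the list (Wilson 95% interval 31.9 to 33.6%) and 36.8% of its length. The interval treats peaks as independent, which members of the same cluster are not. Most were small, with 1456 pairs, 291 triplets and 25 clusters of at least 5 peaks, and the median cluster was 4938 bp long. This share depended strongly on the chosen gap, because none could be shorter than 1101 bp. It was 0% at 1 kb, 52.1% at 3 kb and 74.2% at 5 kb.

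The clusters and their genes named here were chosen after their values were seen. The largest cluster held 7 peaks and 11 summits over 28095 bp at chr4:2406877-2434971, of which 71.3% lay under peaks, and it touched 8 protein-coding genes, from AT4G04740 to AT4G04790. Clusters of 6 peaks numbered 6. The longest of them, 25109 bp at chr2:6852566-6877674, touched AT2G15740, AT2G15760, AT2G15770 and AT2G15780. Of the 3 in the arms the longest, 18915 bp at chr3:10933153-10952067, had 58.3% of its length under peaks and touched AT3G28920 and AT3G28922.

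The longest stretch without a broad peak was 271 kb, at chr2:3238903-3510353. It was rich in genes, with 186 annotated, among them 94 protein-coding genes and 23 tRNA genes. Chromosome 2 of Col-0 is known to hold a large insertion of mitochondrial DNA near its centromere, and the sources used here do not give whether reads shared with the mitochondrial genome were kept. Their part in this gap was not tested. The next longest gaps were 209 kb at chr1:15209407-15418666 with 20 pseudogenes and 1 protein-coding gene, and 141 kb at chr1:14745008-14885696 with 13 and 1. Of the 10 longest gaps 8 lay in the pericentromere windows. The exceptions were 110.0 kb at chr1:21747080-21857096 with 21 protein-coding genes and 97.9 kb at chr2:19515607-19613466 with 34. Of all 67 gaps over 50 kb, 17 lay in the windows, a share near that of the windows among bins of 100 kb (290 of 1188).

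Pericentromere windows were set by hand around the centromeres in whole Mb. Chromosome 1 had its window from 12 to 18 Mb and chromosome 2 from 1 to 7 Mb. On chromosome 3 it ran from 11 to 17 Mb, on chromosome 4 from 2 to 6 Mb, and on chromosome 5 from 9 to 16 Mb. Peaks there were wider, closer together and richer in summits than in the arms on all 5 chromosomes. The median width was 1533 bp in the 3599 window peaks and 1021 bp in the 9328 arm peaks, with chromosome medians of 1426 to 1760 bp and 982 to 1107 bp. The median gap after a peak was 3552 bp in the windows and 5396 bp in the arms. At least 2 summits were held by 23.4% of window peaks and 7.09% of arm peaks, and 45.4% and 27.9% belonged to clusters. Of window peaks 24.4% had a −log10 q at or above 5, and of arm peaks 7.85%. The median fold differed little, at 1.67 in the windows and 1.63 in the arms.

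In bins of 100 kb the mark covered a median of 27.6% of a window bin (290 bins) and 12.2% of an arm bin (898 bins), a ratio of 2.27. The ratio was 2.09, 3.02, 1.87, 1.74 and 2.20 on chromosomes 1 to 5 in order. It moved with the windows and with the selection of peaks. It was 1.68 with windows 1 Mb shorter on each side, 3.67 with the narrow list, and 23.3 with broad peaks at or above a −log10 q of 5, where the arm median was only 0.298%. The fall with distance was gradual. The median was 25.2% within 1 Mb of a window (100 bins), 19.2% at 1 to 2 Mb, 12.5% at 2 to 4 Mb, 10.2% at 4 to 8 Mb and 9.98% farther out. The share of the bin in protein-coding genes ran the other way, at 57.1% within 1 Mb and 70.8% beyond 8 Mb. Across all 1188 bins the Spearman correlation between the 2 shares was −0.58, and it lay between −0.69 and −0.50 on single chromosomes. Neighbouring bins are not independent, so this is a description.

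**Figure D3:**
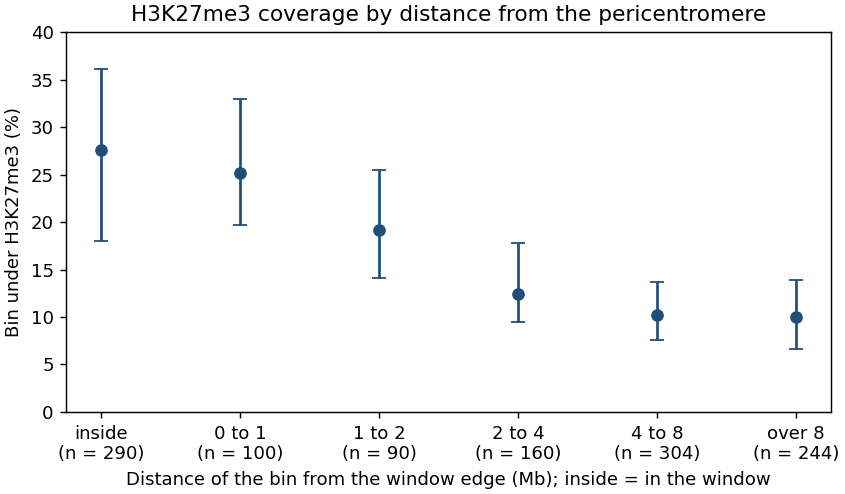
Percent of a 100 kb bin under H3K27me3 broad peaks (vertical axis), as the median (point) and quartiles (bars) of bins inside the pericentromere windows and by distance from the window edge in Mb (horizontal axis, number of bins in brackets). The medians go down from 27.6% inside to 9.98% beyond 8 Mb.

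The centres of the windows were a trough between flanking shoulders. Within 1 Mb of a window's centre the median bin was 16.9% covered (quartiles 9.60 and 23.6%, 100 bins), against 31.2% at 1 to 2 Mb and 33.2% beyond 2 Mb. The trough was present on all 5 chromosomes when the centre is set against the bins at 1 to 2 Mb. Chromosome 1 had 9.0% within 1 Mb, 32.3% at 1 to 2 Mb and 28.9% beyond. Chromosome 3 had 17.3%, 21.2% and 35.3%, and chromosome 2 had 21.9%, 34.3% and 41.1%. Protein-coding genes were also scarce there, at a median of 4.47% of a bin within 1 Mb, 18.4% at 1 to 2 Mb and 37.3% beyond. Bins without a peak numbered 5, and all were in the windows: 1 on chromosome 1, 2 on chromosome 2 in the gap above, and 2 on chromosome 5. How repeats near centromeres were mapped is not given, and its part in the trough was not tested.

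**Figure D4:**
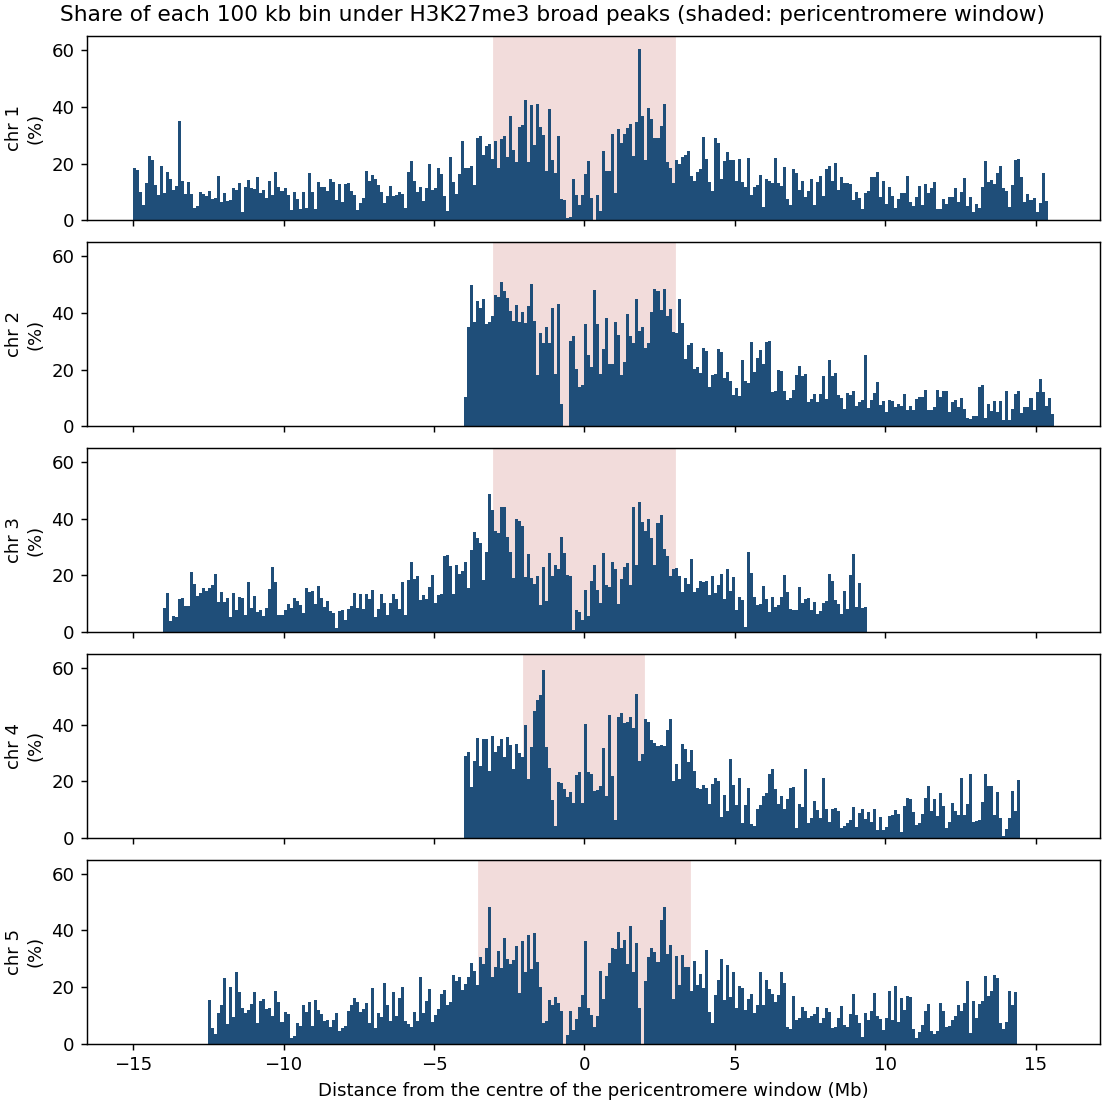
Percent of each 100 kb bin under H3K27me3 broad peaks (vertical axes) along chromosomes 1 to 5 (top to bottom), placed by distance from the centre of the pericentromere window in Mb (horizontal axis), with the window shaded. Shoulders inside and beside the windows reach 60.5% on chromosome 1 and 59.4% on chromosome 4, with a trough between them on each chromosome.

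The most covered bin was chr1:16800001-16900000, with 60.5% of its length and 27 summits, followed by chr4:2600001-2700000 with 59.4% and 32 summits. Among arm bins the first was chr2:200001-300000 with 49.8%, which holds the wide peak over PDLP6. The short arms outside the windows on chromosomes 2 and 4 had medians of 38.0% (10 bins) and 30.2% (20 bins), whereas the other 8 arms had medians between 11.3 and 12.7%. All bins of those short arms lie within 2 Mb of a window. Over all arms, with these short arms included, the medians were 25.2% within 1 Mb and 19.2% at 1 to 2 Mb. The part of distance in the coverage of the short arms was not tested. The least covered arm bin was chr4:17900001-18000000, with 0.811% and 0 summits, where protein-coding genes took up 85.0% of the length.

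Relative to genes, broad peaks were mostly at edges or between genes. No protein-coding gene was touched by 6677 peaks (51.7%). A gene edge was crossed by 4682 (36.2%), at least 1 whole gene was held by 926 (7.16%), and 642 (4.97%) lay wholly within genes. The last group was the narrowest and weakest, with a median width of 612 bp and a summit in 30.2%, while peaks over whole genes had a median of 3012 bp and a summit in 73.5%. Of the 8940 summits, 9.40% lay in protein-coding genes, which take up 54.1% of the span, 2.16% in other annotated genes and 88.4% outside all of them. Summits outside protein-coding genes had a median distance of 692 bp to the nearest one (quartiles 328 and 1909 bp), 60.4% lay within 1 kb and 11.5% farther than 5 kb. The gene table gives no strand, so the start and end sides of genes were not told apart.

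A protein-coding gene was called marked when at least 50% of its length lay under broad peaks, which held for 1555 of 27444 genes, or 5.67%. Of these, 1068 (68.7%) were covered from end to end, but a summit inside was found in only 262 (16.8%), and a further 689 had one within 1 kb outside. Most marked genes, 1095 of 1555, had no marked neighbour. The other 460 (29.6%) stood in runs of at least 2 adjacent marked genes. The next gene was marked for 16.8% of marked genes and 5.0% of unmarked genes. The pericentromere windows held 33.8% of marked genes and 10.96% of all protein-coding genes. A wide peak also marks the neighbours it covers together, as the peak over PUX2 and PDLP6 did. The part of place and of shared peaks in this contrast was not tested. The genes named in the runs below were chosen after their values were seen. The longest runs had 6 genes. One of them, on chromosome 2, included RGF8, a gene of the root meristem growth factor peptides, and TET13, a tetraspanin gene. A run of 5 on chromosome 1 included CYCT1;1, FBH1, which encodes a bHLH activator of CONSTANS, and RALFL5, a signalling peptide gene. A run of 4 in the short arm of chromosome 2 held the SKP1-like genes SK19, SK14 and SK16. Short genes were marked most often, with 17.5% of those under 1 kb, 5.78% at 1 to 2 kb, 2.22% at 2 to 4 kb and 1.26% from 4 kb on. By chromosome the share was 7.64% on chromosome 2, 7.11% on chromosome 4 and 4.51 to 5.29% on the others.

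The known Polycomb targets were taken as 10 lists with 97 genes, with 11 housekeeping genes beside them. Lists were drawn by family or function, and whether each single member is a Polycomb target was not tested. Marked at 50% were 5 of 97 target genes, or 5.15% (Wilson 95% interval 2.22 to 11.5%), and 0 of 11 housekeeping genes, against 5.67% of all protein-coding genes, so the share was near the background. At least 1 covered base was found in 37 target genes (38.1%) and 3 housekeeping genes (27.3%), against 26.0% of all. A summit lay inside 6 target genes (6.19%) and 0 housekeeping genes, against 2.91% of all, and within 1 kb outside for 19 (19.6%) and 3 (27.3%), against 22.1% of all. The median coverage was 0% over the 97 target genes and over all genes, but 3.75% in the flowering repressors and 2.15% in the floral organ genes. Target genes were somewhat longer, with a median of 2528 bp against 2078 bp over all genes, and longer genes reach 50% less often. A longer gene also has more length in which a covered base or a summit can fall. No test was made of these differences.

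**Figure D5:**
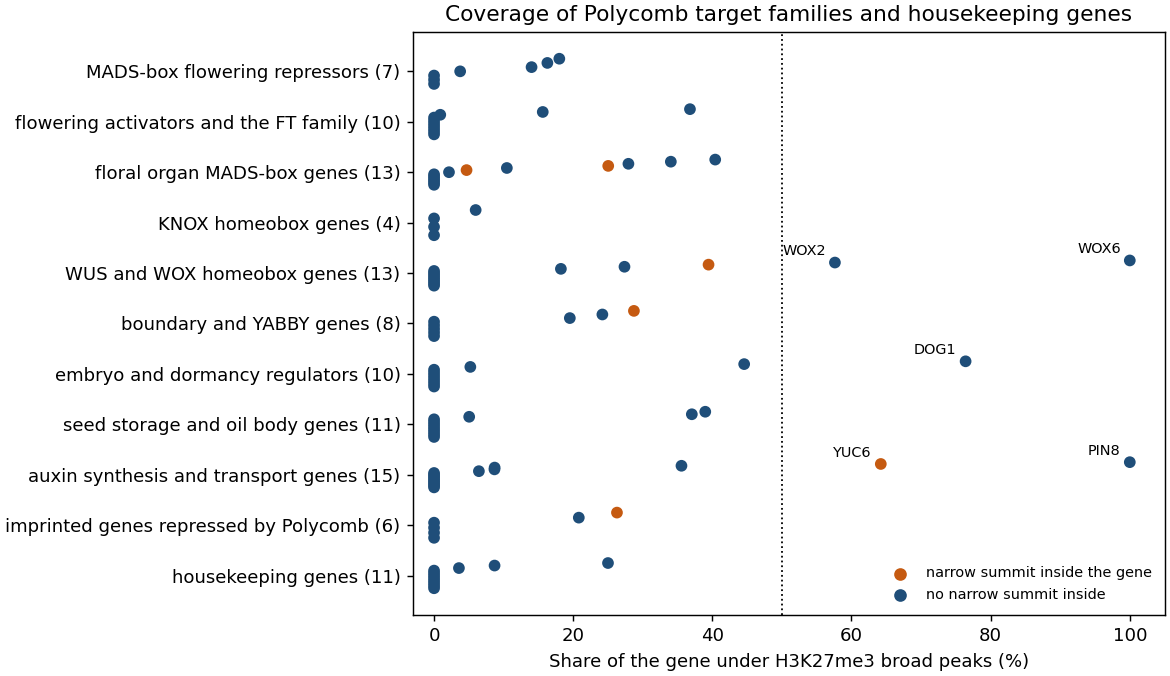
Share of each listed gene under H3K27me3 broad peaks (horizontal axis, %) for the 10 Polycomb target lists and, at the bottom, the housekeeping genes (number of genes in brackets), 1 point per gene, orange where a narrow summit lies inside the gene. The dotted line marks 50%, which WOX2, WOX6, DOG1, YUC6 and PIN8 pass.

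Among flowering repressors of the MADS-box family 0 of 7 were marked. FLC, the repressor silenced by Polycomb during vernalization, had 0% coverage. Its nearest broad peak was 399 bp away at chr5:3179848-3180210, only 363 bp wide with no summit, but had a fold of 2.08 at −log10 q 6.57. In the tandem array of its relatives, MAF2 was covered 18.01%, MAF4 14.01% and MAF3 3.75%. A single weak peak, chr5:25991259-25992754 with a fold of 1.46, reached into both MAF3 and MAF4. MAF5 had 0%, with a peak of fold 1.80 lying 239 bp outside. FLM was covered 16.3% and SVP 0%, with a peak 97 bp away.

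Of the flowering activators and the FT family 0 of 10 were marked. FT, which encodes the mobile flowering signal, had 0% coverage and its nearest broad peak 2021 bp away. Its antagonist TFL1 was covered 36.8% by a peak of fold 1.50 without summit, AGL42 15.6% and TSF 0.893%. SOC1, AGL19 and AGL24 had their nearest peaks 7627, 11286 and 20849 bp away.

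Floral organ identity genes had 0 of 13 marked, and 7 with a covered base. AG, which specifies stamens and carpels, was covered 40.4% by a single peak of 2297 bp at chr4:10385367-10387663 that lay wholly inside the gene. AG is known to carry its regulatory sequence in a large intron, but exons were not available to place the peak. It had a fold of 1.49, −log10 q 1.82 and no summit. STK, an ovule identity gene, was covered 34.0% by a stronger peak of 6358 bp at chr4:6239612-6245969 with a fold of 1.75, −log10 q 5.11 and 2 summits, of which the nearest lay 191 bp outside the gene. SEP3 was covered 27.9% by a peak near the threshold of the list, with a −log10 q of 1.08. SEP1 was covered 25.03% by a peak of 731 bp wholly inside it with a summit. PI was covered only 4.67%, yet held a summit of a peak with fold 1.85 and a −log10 q of 4.26. AP1, AP3, CAL, FUL, SEP2 and SHP2 had 0%.

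In the meristem families, 0 of 4 KNOX genes were marked. STM, which maintains the shoot meristem, had 0% with a peak 1572 bp away, and KNAT1 5.98% with a peak of fold 1.72. KNAT2 had 0% with a peak 32 bp away. Of 13 WUS and WOX genes 2 were marked. WOX6, also PFS2, a homeobox gene acting in ovule development, was covered 100% by a peak of 7255 bp at chr2:223432-230686 with a fold of 1.64 at −log10 q 2.68. It lies in the short arm of chromosome 2, whose bins were among the most covered. WOX2, which acts in the early embryo, was covered 57.6% by a peak of 5993 bp with a fold of 1.55 and 2 summits, the nearest 1669 bp outside. WOX12, a gene of adventitious root formation, was covered 39.5% by 2 peaks, the stronger of 674 bp with a summit inside the gene. WUS, which maintains stem cells, had 0% and its nearest peak 2721 bp away. Of the boundary and YABBY genes 0 of 8 were marked. YAB3, a gene of the abaxial side of lateral organs, was covered 28.7% with a summit inside. CUC1, a boundary gene, was covered 24.2%, and KAN1, a regulator of organ polarity, 19.5%.

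Of the embryo and dormancy regulators 1 of 10 was marked. That was DOG1, which controls seed dormancy, covered 76.4% by a peak of 2520 bp with a fold of 1.50, −log10 q 1.54 and no summit. LEC1, a regulator of embryo identity, was covered 44.6% without a summit. ABI3, a regulator of seed maturation, was covered 5.21% by a peak of fold 1.79 with 2 summits, the nearest 193 bp outside. FUS3, BBM, LEC2, L1L, AGL15, PLT1 and PLT2 had 0%. Seed storage and oil body genes had 0 of 11 marked. CRB and OLEO2, which encode a cruciferin and an oleosin, were covered 39.0% and 37.0%, CRA1 5.05%, and the other 8 had 0%. The tandem 2S albumin genes SESA1 to SESA4 had 0% and 1 common nearest peak, 141 bp from SESA1 and 4844 bp from SESA4.

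Auxin synthesis and transport genes had 2 of 15 marked. PIN8, an auxin transporter known from pollen, was covered 100% by a peak of 4089 bp at chr5:4891588-4895676 with a fold of 1.66, −log10 q 3.30 and 2 summits, the nearest 289 bp outside the gene. YUC6, a flavin monooxygenase of auxin synthesis, was covered 64.2% with a summit inside, by a peak of fold 1.84 and a −log10 q of 5.79. YUC6 was the only one of the 5 marked targets whose call remained with peaks at or above a −log10 q of 5, and 0 of the 5 remained with the narrow list. TAA1, which acts before the YUC enzymes, was covered 35.6%. YUC1 had 0%, but a peak of 5370 bp with 4 summits and a fold of 1.97 lay 132 bp outside. Of the imprinted genes 0 of 6 were marked. HDG3, a paternally expressed homeobox gene, was covered 26.3% with a summit inside, and MEA, a maternally expressed PRC2 methyltransferase, 20.8%, while PHE1, PHE2, FWA and FIS2 had 0%.

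Among the housekeeping genes, UBQ10, a ubiquitin gene in the window of chromosome 4, was covered 25% by a peak of fold 1.81 with 2 summits. ACT2 was covered 8.70% and CDKA1 3.58%, and the other 8 had 0%. At a coverage of at least 25%, 18 of 97 target genes (18.6%) and 1 of 11 housekeeping genes were counted, against 9.63% of all protein-coding genes, a difference that was not tested. At 75% the counts were 3 of 97 target genes (3.09%) and 0 of 11 housekeeping genes, against 4.39% of all.

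Beside the H3K27me1 peaks of the same htr10 sperm, H3K27me3 had 47.1% of broad peaks without summit against 42.6% for H3K27me1, 11.6% against 14.2% with at least 2, and 32.8% against 33.2% in clusters. The median gaps were 4758 and 4775 bp. Each mark had its own peak calling, and these differences were not tested.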

How the data were processed

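Sperm nuclei of htr10 plants were sorted and profiled by MNase chromatin immunoprecipitation, with 3 H3K27me3 samples and 3 inputs. Per the submitters' processing notes, the build was TAIR10 and the tools, in no stated order, were MACS2 2.1.0, deepTools 2.5.0.1, bedtools, Picard, SAMtools 1.3, Bowtie2 2.1.0 and Trim Galore 0.4.1. The sources used here do not give how samples and inputs were combined to call peaks. The deposited broad and narrow lists give each peak a −log10 q and a fold, the ratio to a background set by the caller, both made by the authors. They hold 1 list per mark for all its samples, so depth is unknown and no test across samples was possible.

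Widths, gaps, clusters (gaps of at most 2 kb), narrow summits per broad peak, coverage of 100 kb bins and coverage of genes were computed with Python 3.11.15, numpy 2.4.6, pandas 2.3.3 and SciPy 1.17.1, and plotted with matplotlib 3.10.9. Gene coverage, the assignment of summits and cluster membership were tested on simulated data. Genes came from the RefSeq table of TAIR10.1, in which all 108 listed loci were found. Narrow peaks shifted in steps of 100 bp, up to 3000 bp, had the lowest share in genes at no shift on 5 of 5 chromosomes. Because the builds differ, no gene coordinate is given.

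A gene was called at 50% coverage. Named list genes were those called, the 3 most covered of each list, those with a summit inside, and FLC and HTR10; named peaks were the 5 widest and the 5 with most summits (7 with ties), with their called genes. Other genes were chosen after their values were seen. The members and lists were chosen with earlier results of these data known. Alternatives were a stricter q-value, narrow for broad peaks, and other gaps, bins, windows and coverages. Wilson intervals cover counting error only.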

Additional observations from a re-analysis of the deposited data

How the results depend on the processing

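Of 25 alternatives tried, 21 moved a value by more than its limit and 4 did not. The limits were not alike, so these counts depend on them. Counts had to stay within a set factor, and shares and the median width within a 95% interval. That interval treats peaks as independent, which clustered peaks are not. The ratio had to be equal after rounding. Keeping only broad peaks at or above a −log10 q of 5 left 1609 of 12927 peaks, with a median width of 1518 bp, 9.94% in clusters, a pericentromere to arm ratio of 23.3, 238 marked genes and 1 marked target gene. By construction fewer peaks were kept. Narrow in place of broad peaks gave a median width of 540 bp, 42.8% in clusters, a ratio of 3.67, 53 marked genes and 0 marked target genes. The share in clusters was 0% for gaps of at most 1 kb, 52.1% for 3 kb, a gap chosen after seeing the data, and 74.2% for 5 kb. Broad peaks with at least 2 summits were 7.11% when only narrow peaks at or above a −log10 q of 5 counted. The ratio was 2.12 in bins of 50 kb and 1.68 with windows 1 Mb shorter on each side. A coverage of at least 25% marked 2643 genes (9.63%) and 18 target genes (18.6%), 75% marked 1204 genes (4.39%) and 3 target genes (3.09%), and 1 covered base 7143 genes (26.0%) and 37 target genes (38.1%). Apart from these constructions, the cause was not tested. No paired analysis was possible because the lists hold no value per sample, and for the same reason no replicate could be left out. Unknown depth limits what the absence of a peak shows.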
